A study of Mus musculus with 6 samples.

Results

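The adult globin genes and a small set of genes that reticulocytes carry at high level were followed through the RNA sequencing of knee joint cartilage from *Hbb*-cKO and WT mice at postnatal day 6 (P6). The set was chosen by gene symbol in the count table, and 6 of the 7 genes named for it were analysed here, out of 55487 genes in the table: *Hbb-bs* and *Hbb-bt* for the adult β chain, *Hba-a1* and *Hba-a2* for the α chain, *Bpgm* and *Slc25a37*. All 6 passed the filter on low counts, which kept 17175 genes. The *Hbb*-cKO group held 3 libraries of mice labelled as carrying a conditional deletion of *Hbb* in chondrocytes, and the WT group held 3 libraries of wild-type mice. Both came from the same tissue and age, and from poly(A) RNA counted per gene without separation into cell types. The methods of the study describe floxed mice on a C57BL/6J background, in which exons 1 to 3 of *Hbb-bs* and *Hbb-bt* are the target, crossed either to Prx1-Cre, which acts in limb mesenchyme, or to tamoxifen-induced Col2a1-CreERT2, which acts in cells that use the collagen II promoter. The study uses the name *Hbb*-cKO for the Col2a1-CreERT2 mice, but its RNA sequencing methods do not say which line the sequenced mice were, when tamoxifen was given, or how many mice entered a library. The p-values therefore cover the spread between libraries only.

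As background, adult haemoglobin is a tetramer of a pair of α chains and a pair of β chains, each holding a haem. Reticulocytes, the last stage before the mature red blood cell, have lost their nucleus but keep globin mRNA. *Bpgm* encodes bisphosphoglycerate mutase, which makes the bisphosphoglycerate that lowers the oxygen affinity of haemoglobin. *Slc25a37* encodes mitoferrin 1, which carries iron into the mitochondria of developing red blood cells for haem synthesis. *Alas2*, the erythroid form of the first enzyme of haem synthesis, served as a comparison outside the set.

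In GENCODE M21 on GRCm38, *Hbb-bs* spans 103826534 to 103828096 and *Hbb-bt* 103812524 to 103813996, both on the minus strand of chromosome 7. *Hba-a1* spans 32283511 to 32284465 and *Hba-a2* 32296489 to 32297298, both on the plus strand of chromosome 11. *Bpgm* spans 34476207 to 34505613 of chromosome 6 (plus strand) and *Slc25a37* spans 69241848 to 69285112 of chromosome 14 (minus strand). The coding sequences of the copies are nearly identical. Those of *Hba-a1* and *Hba-a2* are 429 bases long and those of *Hbb-bs* and *Hbb-bt* 444 bases long, and each pair differs at 1 base. The stretches around these bases are shown because reads from the coding sequence can tell the copies apart only where they cover them. They were read from the GENCODE M21 transcripts, and the capital marks the base that differs, which is base 381 of the α-globin and base 417 of the β-globin coding sequence.

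Hba-a1 coding sequence, bases 351 to 410: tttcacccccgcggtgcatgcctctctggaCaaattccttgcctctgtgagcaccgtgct
Hba-a2 coding sequence, bases 351 to 410: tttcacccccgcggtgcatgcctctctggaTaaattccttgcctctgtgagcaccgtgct
Hbb-bs coding sequence, bases 385 to 444: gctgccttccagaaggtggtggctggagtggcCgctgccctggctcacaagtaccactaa
Hbb-bt coding sequence, bases 385 to 444: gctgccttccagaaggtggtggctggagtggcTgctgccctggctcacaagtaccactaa

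Exons of *Slc25a37* overlap those of 2 other annotated genes, *Gm31748* and *Gm27223*, both on the other strand. The sources used here do not say whether the counting used strand, so reads of these genes cannot be told apart from those of *Slc25a37*.

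The sequence just before the start of transcription is shown for the globin genes because they shared a pattern over the libraries, and for *Bpgm* and *Alas2* because they shared it in part or closely. Each run is the 130 bases before the RefSeq start on the strand of the gene (GRCm38.p6). Capitals mark matches, on either strand, to CCNCNCCC (the CACCC box that Krüppel-like factors bind), NGATAA (bound by GATA factors), CCAAT and TATAAA, the core of a TATA box. The variant CATAAA was searched as well and matched none of these genes. Matches of different motifs can touch or overlap, as the reversed and forward CCAAT in *Hbb-bt* do. The promoter of *Slc25a37* was not analysed here.

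Hbb-bs promoter, chr7:103827929-103828058, minus strand: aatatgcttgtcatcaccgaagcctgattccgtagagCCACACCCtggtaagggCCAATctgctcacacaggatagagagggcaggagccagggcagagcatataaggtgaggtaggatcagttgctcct
Hbb-bt promoter, chr7:103813924-103814053, minus strand: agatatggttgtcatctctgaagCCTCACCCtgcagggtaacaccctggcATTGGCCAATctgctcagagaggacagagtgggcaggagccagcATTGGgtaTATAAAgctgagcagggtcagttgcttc
Hba-a1 promoter, chr11:32283542-32283671, plus strand: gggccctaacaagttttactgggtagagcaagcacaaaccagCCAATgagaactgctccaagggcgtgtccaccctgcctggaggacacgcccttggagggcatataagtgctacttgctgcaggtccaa
Bpgm promoter, chr6:34476226-34476355, plus strand: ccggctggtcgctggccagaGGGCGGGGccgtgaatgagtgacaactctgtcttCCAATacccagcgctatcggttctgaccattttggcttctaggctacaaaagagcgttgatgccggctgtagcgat
Alas2 promoter, chrX:150547287-150547416, plus strand: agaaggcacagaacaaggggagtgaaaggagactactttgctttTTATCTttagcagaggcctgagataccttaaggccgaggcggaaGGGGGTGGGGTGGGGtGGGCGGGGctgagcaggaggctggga

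The window of *Hba-a2* holds the same sequence as that of *Hba-a1* over 127 bases, shifted by 3 bases because the annotated starts differ. CCAAT began 76 bases before the start in *Hbb-bs* and *Bpgm*, 75 bases in *Hbb-bt*, 88 bases in *Hba-a1* and 91 bases in *Hba-a2*. A CACCC box on the strand of the gene began 93 bases before the start in *Hbb-bs* and 107 bases in *Hbb-bt*. *Bpgm* and *Alas2* matched CCNCNCCC on the other strand, and the windows of *Hba-a1* and *Hba-a2* held no match of it. The *Bpgm* match, GGGCGGGG, does not hold the letters CACCC on either strand. The runs of *Hba-a1* and *Hba-a2* do hold CACCC, but outside the longer motif, so it is not marked. *Hbb-bt* was the only one of the 6 promoters, *Hba-a2* included, with TATAAA on the strand of the gene. The search covered the whole RefSeq window of 250 bases before to 50 bases after the start, which reaches beyond the printed runs. Upstream of these, NGATAA began 183 bases before the start in *Hba-a1*, 186 bases in *Hba-a2*, 210 bases in *Hbb-bs* and 205 bases in *Hbb-bt*, on the strand of the gene, and *Bpgm* had a further CCAAT on each strand. *Alas2* had NGATAA on the other strand inside its printed run and TATAAA on the other strand upstream of it, and *Bpgm* had no NGATAA. In windows of the same length from 32817 promoters, CCNCNCCC occurred in 49.5%, CCAAT in 37.4%, NGATAA in 25.3%, TATAAA in 13.6% and CATAAA in 11.9%.

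Levels are given in CPM, the counts of a gene as a share of its library, scaled to a common size after correction by TMM, a factor per library estimated over most genes. To compare genes, CPM was divided by the length of all annotated exons in kb. In all 6 libraries the order by CPM per kb was *Hba-a1*, *Hbb-bt*, *Hbb-bs*, *Hba-a2*, *Bpgm* and *Slc25a37*. *Hba-a1* averaged 5768 ± 520.4 CPM per kb in *Hbb*-cKO and 14255 ± 4049.9 CPM per kb in WT (mean ± s.e.m., n = 3 libraries each). The closest neighbours were *Hba-a1* and *Hbb-bt*, whose ratio inside a library was 1.33 to 1.48 in *Hbb*-cKO and 1.19 to 1.43 in WT. The widest step lay between *Hba-a2* and *Bpgm*, which was 45.0-fold to 55.5-fold in *Hbb*-cKO and 59.6-fold to 109-fold in WT. Over all genes, by mean CPM not divided by length, *Hbb-bt* ranked 23 in *Hbb*-cKO and 10 in WT, *Hbb-bs* ranked 44 and 14, *Hba-a1* ranked 10 and 7, and *Hba-a2* ranked 133 and 49 in the same groups. The order between the copies of a pair rests on how their shared reads were assigned, which the sources used here do not describe.

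RNA of the targeted genes was still found in the tissue of *Hbb*-cKO mice, at a lower level than in each WT library. *Hbb-bs* had 1603, 2253 and 2002 CPM in the *Hbb*-cKO libraries, against 6383, 5008 and 2843 CPM in the WT libraries. *Hbb-bt* had 2585, 3181 and 3004 CPM in the *Hbb*-cKO libraries, against 10399.8, 7420.2 and 4057 CPM in the WT libraries. Here and below, libraries are given in the order of replicates 1, 2 and 3. The groups did not overlap for either gene, and WT replicate 3 lay closest to the *Hbb*-cKO libraries. Log2 fold changes were -1.28 (standard error, s.e., 0.30) for *Hbb-bs* and -1.32 (s.e. 0.32) for *Hbb-bt*, and edgeR's quasi-likelihood test, adjusted over 17175 genes, gave p-values of 0.218 and 0.241. In bulk tissue, fewer cells of a type and less RNA per cell cannot be told apart.

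The α-globin genes, which the deletion does not target, were lower by a similar amount. *Hba-a1* had 3962, 5425 and 4663 CPM in the *Hbb*-cKO libraries, against 16892, 12268 and 5564 CPM in the WT libraries. *Hba-a2* had 512, 746 and 683 CPM in the *Hbb*-cKO libraries, against 2611, 1832 and 774 CPM in the WT libraries. Again no library of one group reached the other, but the gap between *Hbb*-cKO replicate 2 and WT replicate 3 was narrow. Log2 fold changes were -1.31 (s.e. 0.38) for *Hba-a1* and -1.43 (s.e. 0.42) for *Hba-a2*, and adjusted p-values in edgeR were 0.306 and 0.321.

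**Figure D1:**
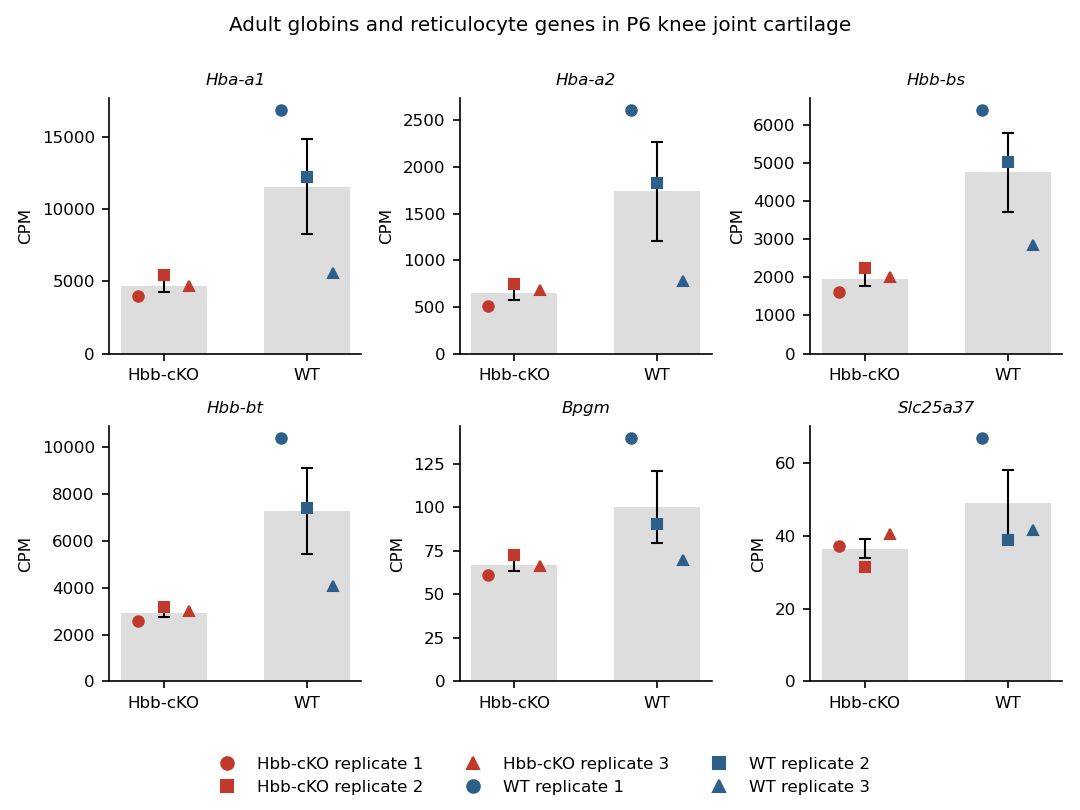
Level of the 6 genes in CPM (y axes, each from 0) in *Hbb*-cKO and WT knee joint cartilage. Symbols are libraries, grey bars give their mean and the error bars its s.e.m. over 3 libraries. The *Hbb*-cKO libraries lie close together, whereas the WT libraries spread widely, with *Hba-a1* at 16892 CPM in replicate 1 and 5564 CPM in replicate 3.

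No member passed an adjusted p of 0.05 in edgeR, a threshold that 0.105% of all genes passed, 0.0699% with a lower level in *Hbb*-cKO. All 6 log2 fold changes were negative, as were 52.5% of those of all genes, and their median was -1.29, against -0.01 over all genes tested. An unadjusted p under 0.05 in edgeR with a lower level in *Hbb*-cKO was found for 5 of 6 members, against 5.22% of all genes. Each *Hbb*-cKO library was below each WT library for the 4 globin genes but neither for *Bpgm* nor for *Slc25a37*, and this held for 8.96% of all genes. DESeq2 called the 4 globin genes and no other member, with adjusted p-values of 0.00165 for *Hbb-bs*, 0.00244 for *Hbb-bt*, 0.0112 for *Hba-a2* and 0.0141 for *Hba-a1*, in a test that called 1.45% of all genes, 0.705% with a lower level in *Hbb*-cKO. The globins are highly similar pairs and share cells, so they are not 4 independent results.

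In edgeR the calls turned on 1 WT library. Without WT replicate 3, edgeR called the 4 globin genes (adjusted p of 0.0335 to 0.0349), with log2 fold changes of -1.54 for *Hbb-bs* to -1.78 for *Hba-a2*, where 0.16% of all genes were called lower in *Hbb*-cKO. Y-linked genes had 1010, 2907 and 1242 counts in the *Hbb*-cKO libraries, against 0, 0 and 2109 counts in the WT libraries. *Xist*, the RNA of the inactive X chromosome, had 5052, 6 and 8079 counts in the *Hbb*-cKO libraries, against 10430, 8739 and 2725 counts in the WT libraries. *Hbb*-cKO replicates 1 and 3 and WT replicate 3 held both in number, as a library made from both sexes would. WT replicates 1 and 2, the libraries with no Y-linked count, were thus also those with the most globin. Inside *Hbb*-cKO the most globin was found in replicate 2, the library with 6 *Xist* counts and the most Y-linked counts. The summed skeletal muscle markers were also highest in WT replicate 3, at 55523 CPM, against 34794 and 39376 CPM in the other WT libraries. The part of these differences in the globin level was not tested.

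The spread of the globins between libraries was itself a feature of the WT group. The highest WT library exceeded the lowest 3.04-fold for *Hba-a1*, 3.37-fold for *Hba-a2*, 2.25-fold for *Hbb-bs* and 2.56-fold for *Hbb-bt*. Among the *Hbb*-cKO libraries the same ratios were 1.37, 1.46, 1.41 and 1.23. Together the 6 members took 0.887%, 1.17% and 1.06% of all counts in the *Hbb*-cKO libraries, against 3.69%, 2.59% and 1.33% in the WT libraries. The levels of all 4 globins stood in the order WT replicate 1, WT replicate 2, WT replicate 3 and then the *Hbb*-cKO libraries, an order found for 1.12% of all genes tested. This order was taken from these same globin levels, so the share is a description and not a test.

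*Bpgm* differed less between the groups than the globins did. It had 61.2, 72.5 and 66.3 CPM in the *Hbb*-cKO libraries, against 139.9, 90.1 and 69.9 CPM in the WT libraries. WT replicate 1 stood above the rest, and the groups overlapped, since *Hbb*-cKO replicate 2 exceeded WT replicate 3. The *Hbb*-cKO mean was 66.7% of the WT mean. In edgeR its log2 fold change was -0.58 (s.e. 0.24), at an unadjusted p of 0.0422 and an adjusted p of 0.470. Without WT replicate 1 it was -0.26.

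*Slc25a37* was the member with the smallest difference. It had 37.2, 31.5 and 40.4 CPM in the *Hbb*-cKO libraries, against 66.8, 38.9 and 41.5 CPM in the WT libraries. WT replicate 1 was the single high library, and the other 5 overlapped. The *Hbb*-cKO mean was 74.1% of the WT mean. In edgeR its log2 fold change was -0.43 (s.e. 0.22, adjusted p = 0.555), and it was -0.14 without WT replicate 1.

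**Figure D2:**
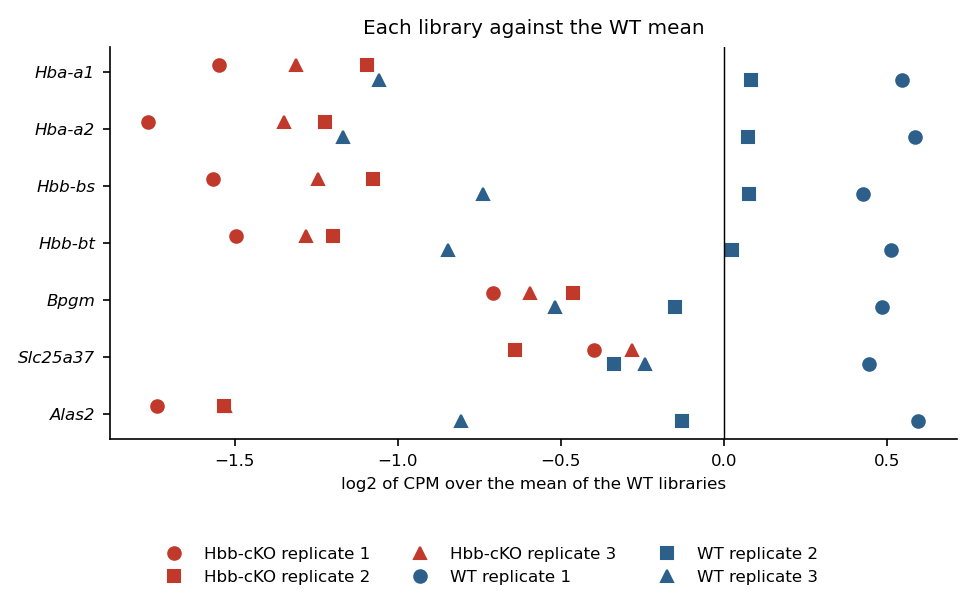
Level of each library relative to the mean of the WT libraries on the log2 scale (x axis) for the 6 members and *Alas2* (rows). Red symbols are *Hbb*-cKO and blue symbols WT libraries, with shapes for the replicate number. For the globins the *Hbb*-cKO libraries lie at -1.07 or below, and WT replicate 3 lies between -1.17 (*Hba-a2*) and -0.74 (*Hbb-bs*). For *Hba-a1* and *Hba-a2*, WT replicate 3 (-1.06 and -1.17) is just above *Hbb*-cKO replicate 2 (-1.09 and -1.22). For *Slc25a37* the *Hbb*-cKO libraries lie between -0.64 and -0.28, beside WT replicates 2 (-0.34) and 3 (-0.24).

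Ratios inside a library do not depend on the scaling of libraries, and were used to ask whether the members kept their proportions. For each β-globin count (HBB, the sum of *Hbb-bs* and *Hbb-bt*), α-globin counts (HBA, the sum of *Hba-a1* and *Hba-a2*) came to 1.07, 1.14 and 1.07 in *Hbb*-cKO and 1.16, 1.13 and 0.919 in WT. The log2 value of this ratio differed by 0.03 between the groups (s.e. 0.11, two-sided exact permutation p = 0.9). Divided by exon length, the α-globin sum was 6738 ± 622 CPM per kb in *Hbb*-cKO and 16862 ± 4848 CPM per kb in WT, and the β-globin sum was 6701 ± 497 and 16551 ± 3944 CPM per kb in the same groups (n = 3 each). The split between copies, which is uncertain for near-identical genes, was compared in the same way. The share of *Hbb-bs* among the β-globin counts was 39.9 ± 0.922% in *Hbb*-cKO and 39.8 ± 0.943% in WT (exact permutation p = 1). The share of *Hba-a1* among the α-globin counts was 87.9 ± 0.387% in *Hbb*-cKO and 87.1 ± 0.343% in WT (exact permutation p = 0.2).

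*Bpgm* counts per globin count were higher in *Hbb*-cKO, where the globins they are divided by were lower. Per 1000 adult globin counts, 7.07, 6.25 and 6.40 *Bpgm* counts were found in the *Hbb*-cKO libraries, against 3.86, 3.40 and 5.28 in the WT libraries. The groups did not overlap, and WT replicate 3 was the WT library nearest to *Hbb*-cKO. The log2 ratio was higher by 0.68 in *Hbb*-cKO (s.e. 0.20, two-sided exact permutation p = 0.1, the smallest that 3 libraries against 3 allow).

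For *Slc25a37* the corresponding ratios were 4.30, 2.71 and 3.90 per 1000 globin counts in *Hbb*-cKO and 1.84, 1.46 and 3.13 in WT. The groups overlapped at *Hbb*-cKO replicate 2 and WT replicate 3. The log2 ratio differed by 0.81 (s.e. 0.38, exact permutation p = 0.2). The lower globin counts of *Hbb*-cKO enter this ratio as well. *Alas2* went the other way, with 10.9, 9.43 and 10.6 counts per 1000 globin counts in *Hbb*-cKO, against 13.2, 10.9 and 13.7 in WT. Its log2 ratio differed by -0.28 (s.e. 0.12, exact permutation p = 0.2), and *Hbb*-cKO replicate 1 and WT replicate 2 nearly coincided.

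**Figure D3:**
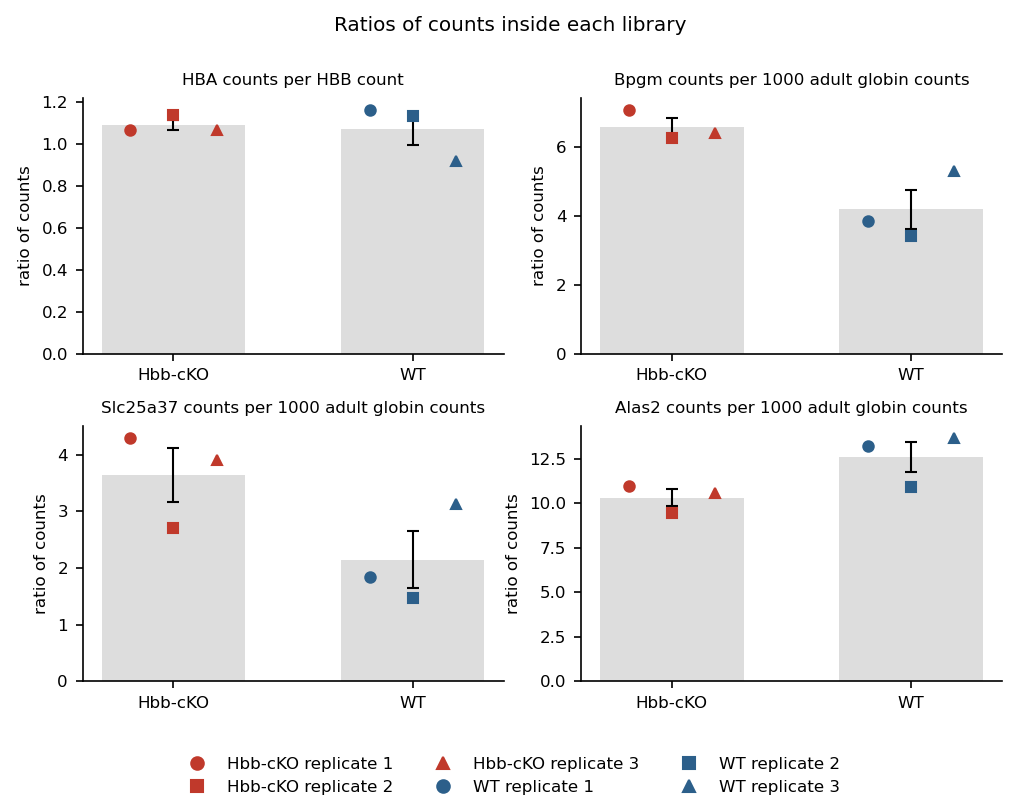
Ratios of counts inside each library (y axes, from 0): HBA counts per HBB count, and *Bpgm*, *Slc25a37* and *Alas2* counts per 1000 adult globin counts. Symbols are libraries, bars give their mean and the error bars its s.e.m. over 3 libraries. The *Bpgm* ratio is at least 6.25 in *Hbb*-cKO and at most 5.28 in WT, and the HBA to HBB ratios of the groups overlap. The globin level that *Bpgm*, *Slc25a37* and *Alas2* are divided by is lower in each *Hbb*-cKO library.

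The other globin genes were nearly silent at P6. *Hba-x*, the embryonic ζ-globin, and *Hbb-bh2* had no count in any library, where 3 counts would be 0.141 to 0.182 CPM depending on the library. *Hbb-y* had 2 counts each in WT replicates 1 and 2, and *Hbb-bh1* had 1 count in *Hbb*-cKO replicate 3, all under that floor. Of the list of 6 embryonic and theta globins, only the theta globin *Hbq1b* passed the filter on low counts, with 21, 11 and 12 counts in *Hbb*-cKO and 25, 17 and 6 counts in WT (edgeR log2 fold change -0.33, s.e. 0.56, adjusted p = 0.899).

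Other genes of late erythroid cells did not share 1 direction. Of 21 tested genes on that list, 12 had negative and 9 positive log2 fold changes, none passed in edgeR, and the median was -0.04. With an unadjusted p under 0.05 in edgeR, 5 were lower in *Hbb*-cKO (*Alas2*, *Isg20*, *Tent5c*, *Mkrn1* and *Bnip3l*) and 2 were higher (*Rhd* and *Hemgn*). Over all genes, 5.22% were lower and 4.89% higher by that measure. DESeq2 called *Alas2* and *Isg20*, in a test that called 1.45% of all genes. Each *Hbb*-cKO library was below each WT library for 6 genes of the list, where this held for 8.96% of all genes. For *Rhd* each was above, and the share of all genes for that direction was not computed. *Tent5c*, *Bnip3l* and *Hemgn* were named after their values were seen. A separate list of erythroid markers, named in full, held the globins, *Alas2*, *Slc4a1*, *Klf1*, *Hemgn*, *Epb42*, *Rhag* and *Ermap*. The last 6 had positive edgeR log2 fold changes, 0.29 to 2.11, and only *Hemgn* had an unadjusted p under 0.05. Their summed CPM overlapped between the groups. Per 1000 globin counts they summed to 4.86, 1.21 and 3.70 in *Hbb*-cKO, against 1.02, 0.629 and 1.14 in WT. The lower globins of *Hbb*-cKO enter this ratio.

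*Alas2* had 94.8, 109 and 109.5 CPM in the *Hbb*-cKO libraries, against 479, 289.6 and 181 CPM in the WT libraries. Its groups did not overlap, with WT replicate 3 lowest of the WT libraries as for the globins (edgeR log2 fold change -1.60, s.e. 0.33, adjusted p = 0.184). *Isg20*, an interferon-induced exonuclease gene, had 7.60, 9.06 and 9.37 CPM in *Hbb*-cKO, against 28.5, 20.6 and 10.1 CPM in WT (edgeR log2 fold change -1.18, adjusted p = 0.317).

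*Rhd*, which encodes a Rhesus blood group membrane protein, stood on the other side, with 6.81, 3.90 and 5.46 CPM in *Hbb*-cKO, against 2.87, 3.16 and 2.48 CPM in WT (edgeR log2 fold change 0.92, s.e. 0.25, adjusted p = 0.281). Its groups did not overlap. Neutrophil lineage markers summed to 137, 29.97 and 116 CPM in the *Hbb*-cKO libraries and 42.6, 28.8 and 23.0 CPM in the WT libraries, and so were high in the same 2 libraries in which *Rhd* was highest. All 11 tested markers of that lineage had positive log2 fold changes (median 1.66). Of these, 8 had an unadjusted p under 0.05 in edgeR, none passed there and DESeq2 called 2. Over all genes, 4.89% were higher with an unadjusted p under 0.05 in edgeR, and DESeq2 called 1.45% in either direction. The part of neutrophil lineage cells in the erythroid genes was not tested.

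**Figure D4:**
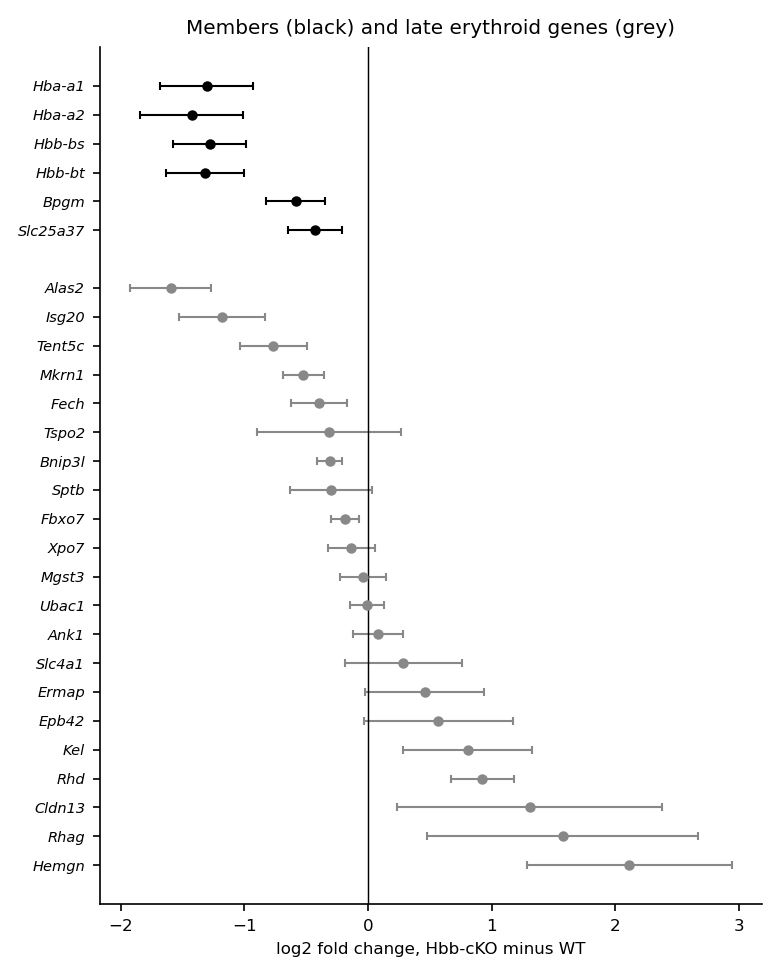
Log2 fold change of *Hbb*-cKO minus WT (x axis) for the 6 members (black) and the 21 tested late erythroid genes (grey). Points are edgeR estimates and error bars standard errors over 3 libraries against 3. The members lie between -1.43 and -0.43, and the late erythroid genes between -1.60 (*Alas2*) and 2.11 (*Hemgn*).

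Among genes of erythroid progenitors and early erythroblasts, 11 of 14 were tested, with a median log2 fold change of -0.16. Over all genes, 5.22% were lower with an unadjusted p under 0.05 in edgeR, and DESeq2 called 0.705% lower. None of the 11 passed in edgeR, 2 were lower with an unadjusted p under 0.05, and DESeq2 called 1 of these. This was *Zfpm1*, the GATA1 cofactor FOG1, with 8.06 ± 1.14 CPM in *Hbb*-cKO, against 18.1 ± 1.63 CPM in WT (edgeR log2 fold change -1.17, s.e. 0.21, adjusted p = 0.133, n = 3). The other was *Ldb1*, which joins enhancers to promoters in erythroid cells, with 172 ± 5.84 CPM in *Hbb*-cKO, against 219 ± 13.5 CPM in WT. *Epor*, the erythropoietin receptor gene, and *Tal1* had log2 fold changes of -0.32 and -0.30. *Klf1*, which encodes a factor that binds CACCC boxes of globin promoters and was named for that role, had 51, 3 and 64 counts in *Hbb*-cKO and 19, 8 and 19 counts in WT. Its counts were highest in *Hbb*-cKO replicates 1 and 3, the libraries in which the neutrophil lineage markers were also high, and the part of those cells was not tested.

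The genes of haem synthesis and mitochondrial iron around *Slc25a37* were mixed as well. Of 16 tested genes, 2 were lower and 1 higher with an unadjusted p under 0.05 in edgeR, none passed, and the median was -0.14. Over all genes, 5.22% were lower and 4.89% higher by that measure. Beside *Alas2*, the lower gene was *Ftl1*, the ferritin light chain gene, with 242 ± 17.1 CPM in *Hbb*-cKO, against 358 ± 35.4 CPM in WT. DESeq2 called *Alas2* alone from this list. *Alad*, which encodes the enzyme of the next step after *Alas2*, was the higher one. It had 37.0 ± 6.69 CPM in *Hbb*-cKO, against 22.7 ± 3.39 CPM in WT.

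Enzymes of phosphoglycerate metabolism next to BPGM did not share the lower level of *Bpgm*. Of 10 tested genes, 7 had positive log2 fold changes, and the median was 0.07. *Hk1*, the hexokinase of red blood cells and many tissues, had an unadjusted p of 0.0222 in edgeR, with 61.9 ± 0.898 CPM in *Hbb*-cKO, against 51.2 ± 0.606 CPM in WT (n = 3). *Pgam1*, *Eno1* and *Tpi1* had log2 fold changes of 0.34, 0.19 and 0.14. Genes that take up or degrade free haemoglobin and haem, or keep it reduced, showed no unadjusted p under 0.05 among 10 tested, with a median of -0.02. *Hp*, which encodes the haemoglobin scavenger haptoglobin, had 39.4 ± 10.8 CPM in *Hbb*-cKO, against 24.8 ± 2.61 CPM in WT. *Cd163*, the macrophage receptor for the haptoglobin complex, had 28.0 ± 1.89 CPM in *Hbb*-cKO, against 35.0 ± 5.16 CPM in WT, and *Blvra* and *Cyb5r3* had log2 fold changes of -0.21 and -0.12.

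The genes whose pattern over the 6 libraries was most like that of the summed adult globins were found by the root mean square difference of centred log2 CPM, among 14407 genes. The 8 closest outside the set were *Rdx* (0.0991), *Isg20* (0.0994), *Alas2* (0.185), *Mid1* (0.196), *Dlk1* (0.200), *Rreb1* (0.233), *Erdr1* (0.235) and *Rapgef5* (0.241), against a median of 0.779 over the genes compared. *Bpgm* was at 0.392 and *Slc25a37* at 0.557, farther than all 8. A gene with the same level in all 6 libraries would be at 0.750. *Rdx*, which encodes the membrane and actin linker radixin, had 31.0, 46.2 and 35.0 CPM in *Hbb*-cKO, against 139, 110.1 and 47.4 CPM in WT. Its level in WT replicate 3 lay just above that in *Hbb*-cKO replicate 2, as for *Hba-a1*. None of the 8 passed in edgeR, with adjusted p-values of 0.139 to 0.329 and log2 fold changes of -1.60 to -0.92. These 8 were chosen for their pattern over the same libraries, so values near those of the globins follow from that choice.

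The tissue label was checked against defining markers. All 12 chondrocyte markers were tested, and they summed to 18563 to 62641 CPM over the *Hbb*-cKO libraries and to 36275 to 46687 CPM over the WT libraries. No marker of the 9 cell type lists was at 0 in all libraries. Skeletal muscle markers summed to 30901 to 39329 CPM over the *Hbb*-cKO libraries and to 34794 to 55523 CPM over the WT libraries, and osteoblast markers to 25098 to 38942 and 21754 to 24529 CPM in the same groups. Endothelium markers summed to 718 to 826 and 551 to 697 CPM. Osteoblast and endothelium sums did not overlap between the groups, whereas chondrocyte and muscle sums did. In *Hbb*-cKO replicate 1, the library with the least globin, the chondrocyte sum of 18563 CPM lay below the muscle (39329 CPM) and osteoblast (38942 CPM) sums. The part of the tissue mix in the globin level was not tested. Total counts were 17405688 to 20969914 in *Hbb*-cKO and 16544800 to 17475496 in WT. Among all genes, 18 passed in edgeR, of which 6 were higher and 12 lower in *Hbb*-cKO.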

How the data were processed

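RNA sequencing counts of P6 knee joint cartilage from 3 *Hbb*-cKO and 3 WT libraries were used, grouped by the genotype in the labels. The authors deposited 1 table of whole-number counts per gene, not normalized. Tools named in the submitters' notes are edgeR and StringTie, both without a version, and fastp 0.19.5, CASAVA 1.8 and HISAT2 2.1.0. The sources used here give no settings, no strand and no rule for reads shared by gene copies. Of the identifiers shared with GENCODE M21 (GRCm38), 99.4% had the same position in the table.

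The counts were scaled by TMM, filtered with filterByExpr (minimum count 10, minimum total 15) and fitted over all genes with the quasi-likelihood test of edgeR 4.0.16 in R 4.3.3, with Benjamini-Hochberg adjustment at 0.05. Log2 CPM used a prior count of 2. Standard errors were obtained from the log2 fold change and its F value. Near-identical copies were also summed. Ratios were compared by exact permutation tests (two-sided, smallest p = 0.1). The code was tested on simulated data. Counts of all 15 pairs of libraries differed by more than sampling noise, so each was kept as a replicate. The alternatives were RLE factors, DESeq2 1.42.0, TMM factors computed without the globin genes, 2 filters, other thresholds, a replicate block, other denominators and leaving out each library.

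The members and gene lists were chosen with earlier results of these data known. One of the 7 genes named for the set, and some genes of the lists, are not reported here, and the lists are counted without them. Genes named in the text were the members and their sums, up to 4 tested genes with the smallest p in each of 6 pathway lists, *Alas2*, and the 8 genes most like the globins above a mean log2 CPM of 1. Exceptions are marked. Promoter sequences came from RefSeq on GRCm38.p6, with entries for 5 of the 6 members. Floors of 3 counts cover counting error only.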

Additional observations from a re-analysis of the deposited data

How the results depend on the processing

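Every log2 fold change of the 6 members and of the 2 sums stayed negative under all 14 alternatives. The other thresholds among these cannot change a fold change. Leaving out 1 library at a time gave -1.64 to -0.92 for *Hba-a1*, -1.78 to -1.00 for *Hba-a2*, -1.54 to -1.00 for *Hbb-bs*, -1.61 to -0.97 for *Hbb-bt*, -0.79 to -0.26 for *Bpgm*, -0.56 to -0.14 for *Slc25a37*, -1.58 to -0.98 for the summed *Hbb* copies and -1.66 to -0.93 for the summed *Hba* copies. In each case the value nearest 0 was that without WT replicate 1, and the farthest was that without WT replicate 3 except for *Slc25a37*, where it was that without WT replicate 2. DESeq2 called *Hba-a1* (-1.30), *Hba-a2* (-1.42), *Hbb-bs* (-1.27), *Hbb-bt* (-1.31), the *Hbb* sum (-1.30) and the *Hba* sum (-1.31), which edgeR called only without WT replicate 3 (-1.64, -1.78, -1.54, -1.61, -1.58 and -1.66 in the same order). *Bpgm* and *Slc25a37* passed under none of the alternatives. The count of genes past the threshold was 18, against 249 in DESeq2, 60 with no filter on low counts, 41 and 1 at thresholds of 0.1 and 0.01, and 1 to 39 when 1 library was left out. The cause of these differences was not tested. The HBA to HBB difference ran from -0.0749 to 0.0947 and that in the *Hbb-bs* share from -0.839 to 0.885 percentage points when 1 library was left out, both on either side of 0.

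Libraries of the 2 groups with the same replicate number did not deviate together (correlations of -0.108 to -0.0260), so the numbers were not taken as pairs. With a replicate block, 4 genes passed, and the log2 fold changes were -1.22 for the *Hbb* sum and -1.19 for the *Hba* sum. Planned results on the gene not analysed here were not run.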

Other observations

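Of the 8 genes closest to the globins in pattern, *Mid1* and *Erdr1* lie at or near the pseudoautosomal end of the mouse X chromosome. *Mid1* had 7.38, 6.95 and 6.36 CPM in *Hbb*-cKO, against 27.4, 19.6 and 11.2 CPM in WT. *Erdr1* had 113, 123 and 104 CPM in *Hbb*-cKO, against 289, 283 and 168 CPM in WT. Both were chosen for a pattern like that of the globins, so their highest levels in WT replicates 1 and 2 follow from that choice. These are the libraries without Y-linked counts. Inside *Hbb*-cKO, replicate 2 had 6 *Xist* counts, against 5052 in replicate 1 and 8079 in replicate 3. Its level lay between theirs for *Mid1* and above theirs for *Erdr1*. The part of sex in the globin pattern was not tested.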
